A study of Homo sapiens with 3 samples.

Results

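Histone gene transcripts were followed in single cells of the lung carcinoma line H460 and of 2 cultures derived from it. Members were all listed symbols that begin with HIST1H, HIST2H, HIST3H, HIST4H, H2AF or H3F, together with H1F0 and H1FX. This rule took 59 of the 18692 symbols in the 3 count tables. Of these, 48 carry names of the clustered, replication-dependent genes and 11 are replacement histone genes.

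The parent H460 was established from a human large-cell lung carcinoma. The other cultures are its descendants mdR-H460 and ldR-H460, which the labels call mid-term and long-term; the growth protocol describes target cancer cells placed on a feeder layer of gamma-irradiated human fibroblasts with medium conditioned by such fibroblasts. No genetic change or drug is named for any of the 3, and the time that separates mid-term from long-term was not assigned, because the sample descriptions hold codes that no source used here explains. Each culture gave 1 library of 3' ends, so no difference has a replicate check, no test between cultures was possible, and each ratio compares a pair of libraries.

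Levels are in CPM, the unique molecular identifiers (UMIs) of a gene per 1000000 UMIs of its library, without division by transcript length. The range after a fold is a 95% interval for counting error only. A member counted as measured if any library had it at 1 CPM or more, and a difference was counted from 1.5-fold.

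Chromatin is built on octamers of the core histones H2A, H2B, H3 and H4, and linker histones of the H1 family bind where DNA enters and leaves them. Replication-dependent histone genes are transcribed in S phase from clusters of many copies, and their transcripts normally end in a short stem-loop bound by SLBP in place of a poly(A) tail. Replacement histones such as H2A.Z, H3.3 and macroH2A are encoded by genes that stand alone, whose transcripts carry poly(A) tails and are made outside S phase as well. Libraries of 3' ends are primed on poly(A), so replication-dependent transcripts enter them mostly through tailed forms, and the level of a member does not give the amount of its stem-loop form.

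The stem-loop was searched for in annotated human transcripts as the histone stem-loop motif, on the transcript strand, a fixed frame of GG and CTT in the first arm and loop, a later T, then AG, and a final CC, with other positions free. It occurred in 110 of 19669 protein-coding genes (0.559%), in 24 of the 48 replication-dependent members and in 1 of the 11 replacement members, H2AFX. Annotated transcripts of these genes often stop at the coding end, so a gene without a match shows only that the letters are not in its annotated transcripts. These 16-base loops are shown because they mark where the untailed form ends. They come from genes on which the results turn, capitals mark the paired arms, and each is written 5′ to 3′.

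HIST1H2BH: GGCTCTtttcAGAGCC
HIST1H4H: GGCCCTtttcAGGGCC
HIST1H2AC: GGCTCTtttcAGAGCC
HIST1H2BD: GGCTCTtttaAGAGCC
HIST3H2A: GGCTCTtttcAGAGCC
H2AFX: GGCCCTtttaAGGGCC

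HIST1H2BH, HIST1H2AC and HIST3H2A shared 1 loop letter for letter, and the H4 gene and H2AFX shared both arms. In HIST1H2BH 1640 annotated bases followed the loop, in HIST1H4H 1655, in HIST1H2AC 1128, in H2AFX 1044, in HIST3H2A 390 and in HIST1H2BD 39, as the longest such stretch in any annotated transcript. At least 1 annotated transcript of each of these genes therefore runs past the loop.

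For H460 the table held 4531 cells, for mdR-H460 5151 and for ldR-H460 4956, together 14638, the number the series design text gives, with 66192074, 66624830 and 60468481 UMIs. Pairs of libraries shared 24 to 36 cell barcodes. KRT8 and KRT18, keratins of carcinoma cells, stood at 459 to 1755 CPM, KRT19 was at 1696 CPM in H460 and at 194 and 40.3 in the derivatives, and EPCAM, also an epithelial marker, was under 1 CPM in each library. Of 10 fibroblast markers, 5 were at 0 or not listed in H460 and 6 in each derivative, and their summed level was 11.1, 3.06 and 4.68 CPM. Scaling by edgeR TMM factors raised log2 ratios to H460 by 0.18 for mdR-H460 and by 0.12 for ldR-H460. Ratios nearer to 1 than that change side with it, among them those of HIST1H4C, H3F3B, H2AFY and H1FX and of the summed replication-dependent members in mdR-H460.

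Summed over members, histone transcripts took 5102 CPM in H460, 5193 in mdR-H460 and 5320 in ldR-H460. Replacement members gave 4100.5 CPM in H460, 4250.4 in mdR-H460 and 4129.8 in ldR-H460, which was 80.4%, 81.8% and 77.6% of histone UMIs. Replication-dependent members gave 1002, 943 and 1190.5 CPM in the same order. Most of that came from HIST1H4C, a histone H4 gene, which supplied 76.7%, 80.7% and 84.4% of replication-dependent UMIs. Thus the total was close to constant over the 3 cultures, while its makeup was not.

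Of the 59 members, 32 were measured, 22 of them replication-dependent and 10 replacement. At 10 CPM or more stood 17 members, 7 replication-dependent and 10 replacement. The other 27 members never reached 1 CPM, with highest levels from 0.105 to 0.952 CPM and at most 63 UMIs in a library. One of them, HIST1H4B, was not listed for H460. H3F3C was the replacement member among them.

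**Figure D1:**
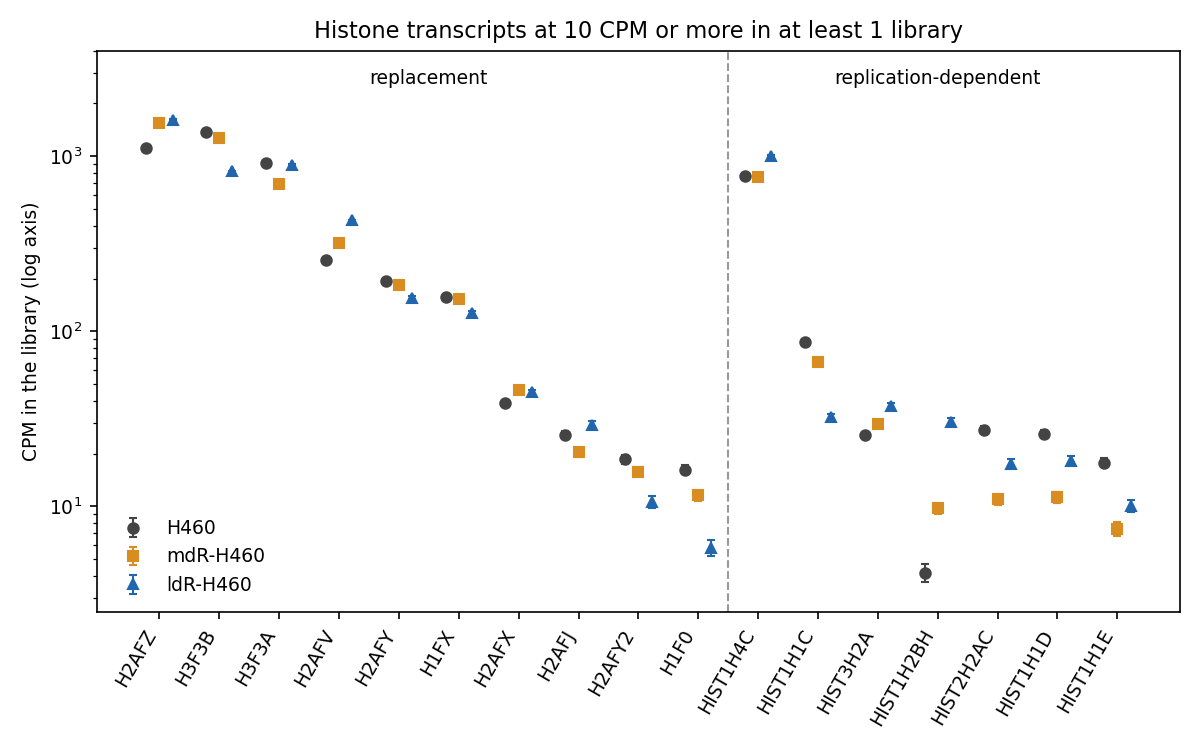
CPM (log axis) of the 17 histone members at 10 CPM or more in any library, replacement members to the left of the dashed line and replication-dependent members to the right; each point is 1 library and bars are 95% counting intervals, often smaller than the point. HIST1H2BH stands lowest in H460 (4.17 CPM) and highest in ldR-H460 (30.4 CPM), and HIST1H1C and H1F0 are lowest in ldR-H460.

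Against H460, mdR-H460 had 4 members at least 1.5-fold higher and 5 lower of the 32 measured, beside 6.66% higher and 22.2% lower of all 12261 genes measured. All 9 were replication-dependent. The median log2 ratio was -0.03 over the members and -0.16 over all genes. With TMM factors 9 were higher and 4 lower, beside 11.1% and 15.0% of all genes.

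In ldR-H460 against H460, 6 members were higher and 9 lower, beside 11.6% and 22.1% of all genes. The 6 higher members comprised 5 replication-dependent genes and H2AFV, and the 9 lower members comprised 6 replication-dependent genes with H3F3B, H2AFY2 and H1F0. With TMM factors 9 were higher and 8 lower, beside 15.0% and 17.8% of all genes. The median was -0.08 over the members and -0.13 over all genes. In ldR-H460 against mdR-H460, 6 members were higher, each replication-dependent, and 7 were lower, 5 replication-dependent and 2 replacement. The background there was 14.8% higher and 11.2% lower, with medians of 0.06 over the members and 0.07 over all genes. The comparisons share libraries and are not independent of each other.

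**Figure D2:**
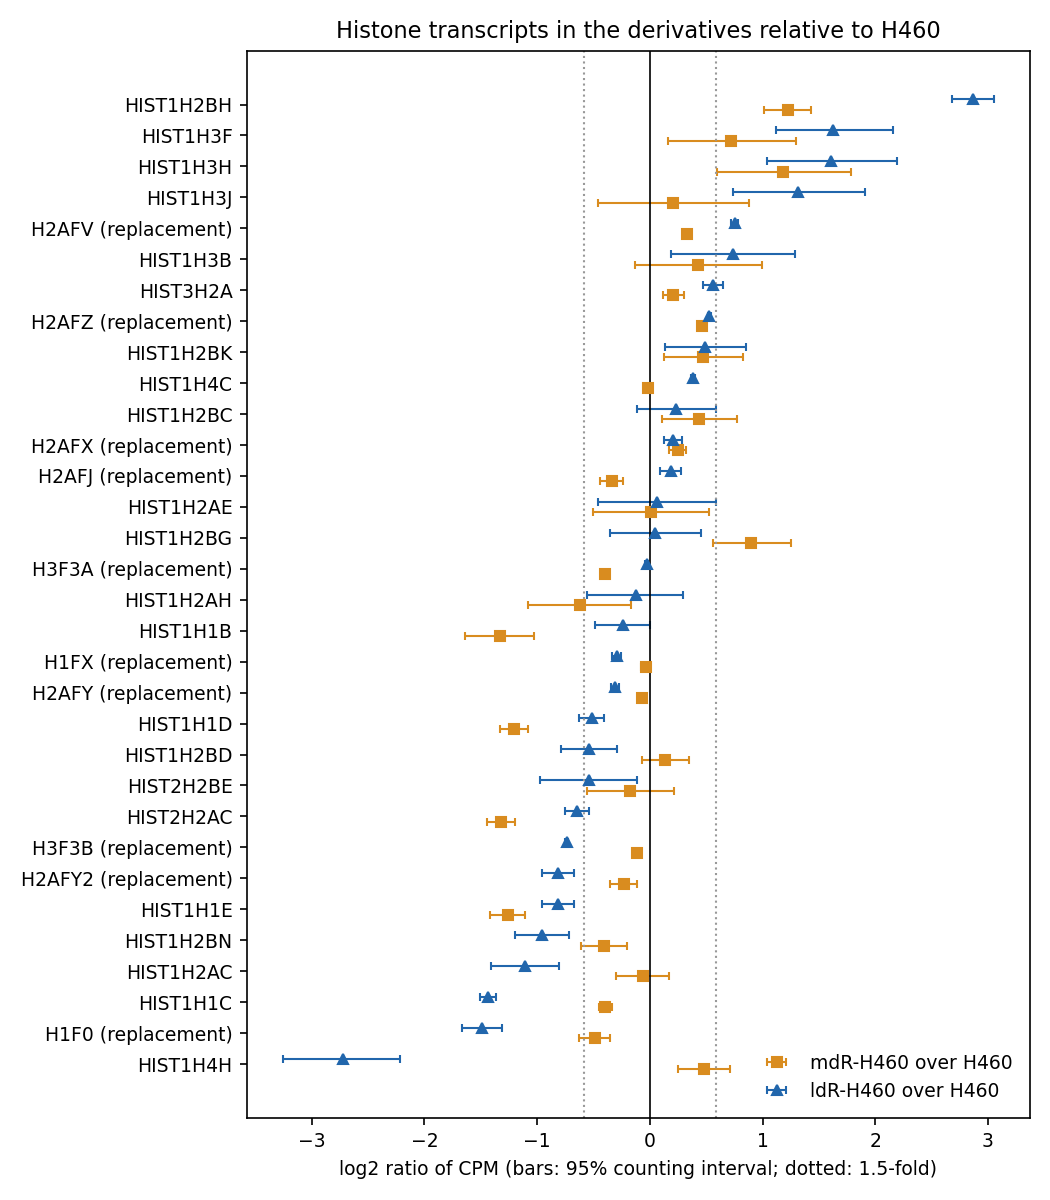
log2 ratio of CPM in mdR-H460 (squares) and ldR-H460 (triangles) over H460 for the 32 measured members, ordered by the ldR-H460 ratio; bars are 95% counting intervals and dotted lines mark 1.5-fold. HIST1H2BH lies at the high end and HIST1H4H at the low end for ldR-H460.

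Among core histone genes, HIST1H2BH, which encodes a histone H2B, had the largest ratio to H460 of a measured member. Its level was 4.17 CPM in H460, 9.73 in mdR-H460 and 30.4 in ldR-H460. It was 2.33-fold (2.02 to 2.70) higher in mdR-H460 than in H460 and 7.30-fold (6.43 to 8.31) higher in ldR-H460, with 276, 648 and 1840 UMIs behind the 3 levels. After each cell had been thinned to 5000 UMIs, 1.82%, 4.25% and 13.7% of cells had at least 1 of its UMIs, against 5.5%, 10.8% and 27.7% of all cells before thinning. The libraries hold no cell type known to lack histone transcripts that could give the share from free RNA.

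Next to it on chromosome 6 lies HIST1H3F, a histone H3 gene on the opposite strand, at 0.665, 1.10 and 2.05 CPM. It was 1.65-fold (1.12 to 2.45) higher in mdR-H460 and 3.08-fold (2.17 to 4.46) higher in ldR-H460 than in H460. HIST1H4H, the next measured gene on the other side, encodes histone H4 and stood at 4.03, 5.61 and 0.612 CPM. It was 6.59-fold (4.66 to 9.57) lower in ldR-H460 than in H460 and 9.17-fold (6.53 to 13.2) lower than in mdR-H460. Neighbours within the cluster thus lay at opposite ends of the ratios.

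In GENCODE annotation of GRCh38, HIST1H3F spans chr6:26250195-26250605 on the minus strand, HIST1H2BH chr6:26251651-26253710 on the plus strand and HIST1H4H chr6:26277609-26285638 on the minus strand. The 250 bases before the RefSeq start of HIST1H3F and HIST1H2BH are printed because both genes were higher in ldR-H460. They are taken from RefSeq on GRCh38.p14 and read 5′ to 3′ on the gene's strand, at chr6:26250636-26250885 for HIST1H3F and chr6:26251364-26251613 for HIST1H2BH. Capitals mark matches, on either strand, to CCAAT, to the TATA box TATAAA, to the octamer ATTTGCAT, to TTTGAA (the cell cycle homology region) and to the E2F-like TTTCGCGC.

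HIST1H3F: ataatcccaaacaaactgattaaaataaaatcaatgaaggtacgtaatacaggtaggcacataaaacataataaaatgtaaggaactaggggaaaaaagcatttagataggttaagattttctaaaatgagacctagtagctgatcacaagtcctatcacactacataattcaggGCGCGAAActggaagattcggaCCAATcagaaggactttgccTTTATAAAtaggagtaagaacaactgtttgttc
HIST1H2BH: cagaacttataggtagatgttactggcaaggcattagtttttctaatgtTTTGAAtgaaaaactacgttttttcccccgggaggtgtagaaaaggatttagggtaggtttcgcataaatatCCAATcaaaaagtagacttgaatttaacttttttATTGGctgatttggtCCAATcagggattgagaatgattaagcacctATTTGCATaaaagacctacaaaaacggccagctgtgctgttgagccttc

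In HIST1H3F, TATAAA matched on both strands in overlapping positions. Both windows held CCAAT, and the octamer stood only in that of HIST1H2BH of these 2. Over the 49 members with a RefSeq promoter entry, 300 bases around the start held CCAAT in 11 of 11 H2A, 11 of 11 H2B, 6 of 6 H3, 4 of 4 H1 and 0 of 8 H4 replication-dependent genes, beside 34.6% of 35116 promoters. The octamer was in 8 of 11 H2A and 7 of 11 H2B genes and in 0 of the 18 H1, H3 and H4 genes, beside 1.77% of all promoters. TTTCGCGC was in 4 H2A, 6 H2B and 1 H3 gene, beside 0.515% of all. Divergent H2A and H2B pairs share bases of their windows, so these genes are not separate cases. A match is a description of the letters and not a binding site. Promoters of H1F0, H3F3C, HIST1H2AH, HIST1H2BC, HIST1H2BE, HIST1H2BF, HIST1H2BG, HIST1H3J, HIST1H4A and HIST1H4C were not used here.

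**Figure D3:**
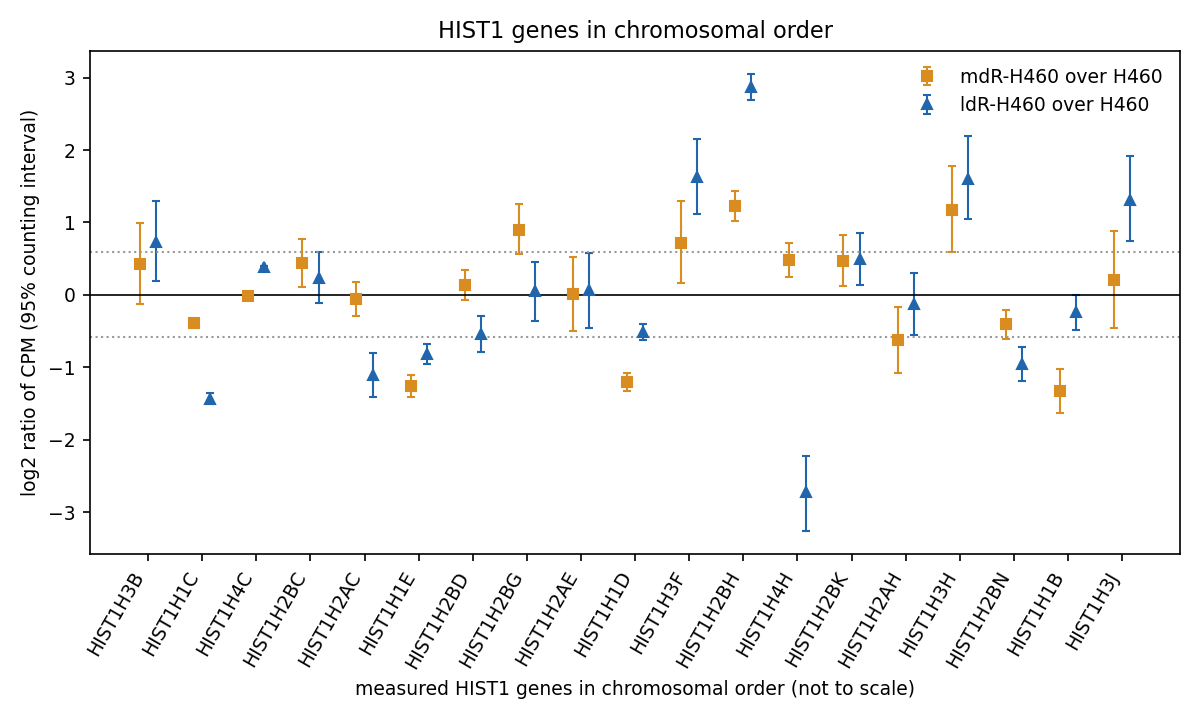
log2 ratio of CPM over H460 for the 19 measured HIST1 genes in chromosomal order (spacing not to scale), with 95% counting intervals and dotted lines at 1.5-fold; squares are mdR-H460 and triangles ldR-H460. HIST1H3F and HIST1H2BH lie above the line for 1.5-fold in both derivatives, and HIST1H4H beside them lies far below it in ldR-H460.

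HIST1H3H and HIST1H3J, also H3 genes, were low but higher in ldR-H460. HIST1H3H stood at 0.544, 1.23 and 1.65 CPM and was 2.26-fold (1.51 to 3.45) and 3.04-fold (2.06 to 4.58) higher in mdR-H460 and ldR-H460 than in H460. HIST1H3J was at 0.559, 0.645 and 1.39 CPM, 2.49-fold (1.67 to 3.76) higher in ldR-H460 than in H460. Summed over 7 replication-dependent H3 genes, the level was 2.95, 4.56 and 6.90 CPM, and over 15 H2B genes 25.9, 32.9 and 48.7 CPM. HIST1H4C, at 769, 761 and 1004 CPM, stayed within 1.5-fold in each pair.

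The H2A gene HIST2H2AC was lowest in mdR-H460, at 27.5, 11 and 17.5 CPM. It was 2.50-fold (2.29 to 2.73) below H460 in mdR-H460 and 1.56-fold (1.45 to 1.69) below it in ldR-H460. In G1 cells alone, defined further on, its ldR-H460 level of 9.42 CPM (6.73 to 12.8) was above the 7.47 CPM (5.61 to 9.75) of H460. These levels rest on 40 and 54 thinned UMIs, and their intervals overlap. HIST1H2AC, at 4.62, 4.43 and 2.15 CPM, was instead lowest in ldR-H460, 2.15-fold (1.75 to 2.66) below H460. HIST3H2A went the other way, at 25.5, 29.4 and 37.6 CPM, within 1.5-fold in each pair, though TMM factors put it past 1.5-fold in ldR-H460 against H460 (log2 0.68). With them HIST2H2AC in ldR-H460 no longer passed (log2 -0.53). The summed level of 12 replication-dependent H2A genes was 61.6, 49.0 and 62.6 CPM, near H460 in ldR-H460 (1.02-fold) and 1.26-fold lower in mdR-H460.

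Replication-dependent linker histone genes had lower sums in the derivatives. The 4 replication-dependent H1 genes summed to 136 CPM in H460, 87.0 in mdR-H460 and 64.6 in ldR-H460; in G1 cells alone the mdR-H460 sum was instead above that of H460, by 0.18 on the log2 scale. With TMM factors the log2 ratio of the sum in mdR-H460 was -0.46, within 1.5-fold. HIST1H1C was at 87.3, 66.4 and 32.3 CPM, 2.71-fold (2.57 to 2.85) lower in ldR-H460 than in H460. HIST1H1D, HIST1H1E and HIST1H1B had another order, with their lowest level in mdR-H460.

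HIST1H1D was at 26.0, 11.3 and 18.2 CPM, HIST1H1E at 17.8, 7.41 and 10.1 CPM, and HIST1H1B at 4.79, 1.91 and 4.05 CPM. Their mdR-H460 levels lay below H460 by 2.30-fold (2.11 to 2.51) for HIST1H1D, by 2.39-fold (2.15 to 2.66) for HIST1H1E and by 2.51-fold (2.04 to 3.11) for HIST1H1B. H1F0, a replacement linker histone known from cells that stop dividing, was at 16.2, 11.5 and 5.77 CPM, and H1FX at 156, 152 and 127 CPM. H1F0 was 2.81-fold (2.49 to 3.18) lower in ldR-H460 than in H460, and H1FX stayed within 1.5-fold.

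Among replacement core histones, H2A.Z transcripts summed to 1374, 1864 and 2044 CPM and H3.3 transcripts to 2278, 1956 and 1713 CPM, each sum within 1.5-fold in each pair. H2A.Z, the variant found near active promoters, is encoded by H2AFZ and H2AFV. H2AFZ was at 1119, 1544 and 1614 CPM and H2AFV at 255, 321 and 429 CPM. H2AFV was 1.68-fold (1.65 to 1.72) higher in ldR-H460 than in H460, and H2AFZ stayed within 1.5-fold in each pair. With TMM factors H2AFZ passed 1.5-fold in both derivatives, at log2 ratios to H460 of 0.65 and 0.65, and so did the H2A.Z sum, at 0.63 and 0.69.

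H3.3, deposited at active genes and at telomeric repeats, is encoded by H3F3A and H3F3B. H3F3B was at 1367, 1266 and 819 CPM, 1.67-fold (1.65 to 1.69) lower in ldR-H460 than in H460. H3F3A was at 912, 690.3 and 894 CPM, within 1.5-fold in each pair and lowest in mdR-H460. Thus the share of H2A.Z transcripts in histone UMIs went from 26.9% in H460 to 35.9% and 38.4%, and the share of H3.3 transcripts from 44.7% to 37.7% and 32.2%.

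The macroH2A genes H2AFY and H2AFY2, whose large H2A variants are linked to silent chromatin, were at 193, 183 and 156 CPM and at 18.6, 15.8 and 10.6 CPM. H2AFY2 was 1.76-fold (1.60 to 1.94) lower in ldR-H460 than in H460. H2AFX, the variant phosphorylated at DNA breaks, was at 38.8, 46.1 and 44.8 CPM, and H2AFJ at 25.7, 20.3 and 29.2 CPM. Both stayed within 1.5-fold in each pair.

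Counts of some members are uncertain. HIST2H4A and HIST2H4B are near-identical copies, and H3F3A has processed pseudogenes. HIST1H2BN spans HIST1H2AK and HIST1H2AL, and HIST1H3J overlaps HIST1H2AM. HIST1H2BN itself was at 6.92, 5.21 and 3.57 CPM, and HIST1H2BG at 1.63, 3.05 and 1.69 CPM. HIST1H2AH stood at 1.57, 1.02 and 1.44 CPM and HIST1H3B at 0.725, 0.976 and 1.21 CPM.

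To set these levels against the cell cycle, each cell was thinned to 5000 UMIs and called G1, S or G2/M from lists of 43 and 54 marker genes that hold no member. Of thinned cells, 18.8% were called G1 in ldR-H460, against 37.5% in H460 and 35.6% in mdR-H460. S calls made up 37.7% of H460 cells, 25.5% in mdR-H460 and 34.3% in ldR-H460, and G2/M calls 24.8%, 38.9% and 46.9% in that order. With the 3 phases weighted equally in each library, 3 members were higher and 5 lower in mdR-H460 than in H460, beside 7.32% and 22.0% of all genes. In ldR-H460 against H460 they were 6 and 12, beside 12% and 24% of all genes. A phase here is the place of a cell in the marker scores and not a measure of DNA content. Left out as shallower were 681, 1271 and 435 cells. Free RNA in droplets can move such calls, and its part was not tested.

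In S against G1, H460 had 11 members at least 1.5-fold higher and 12 lower, beside 14.0% and 11.2% of 12164 measured genes outside the marker lists. In mdR-H460 the counts were 16 and 6 beside 17.2% and 19.7%, and in ldR-H460 11 and 9 beside 16.0% and 13.1%. In G2/M against G1, they were 15 and 7 in H460 beside 14.6% and 15.1%, 15 and 5 in mdR-H460 beside 16.7% and 23.1%, and 11 and 8 in ldR-H460 beside 16.1% and 13.4%. Many of these members had few UMIs in a phase. Those that passed 1.5-fold with a counting interval that excludes 1 were 9 and 9, 14 and 6, and 7 and 4 for S, beside 10.2% and 6.04%, 12.1% and 12.3%, and 9.91% and 6.94% of genes. For G2/M they were 15 and 4, 13 and 5, and 9 and 5, beside 9.86% and 8.57%, 12.9% and 15.8%, and 10.8% and 7.51%.

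Higher in S than in G1 in all 3 cultures were 9 members, beside 5.71% of genes, and 6 were lower in all 3, beside 3.26%. The 9 were HIST1H4C, HIST1H1B, HIST1H1D, HIST1H1E, HIST1H2AH, HIST1H3B and HIST2H2AC with the replacement genes H2AFX and H2AFZ. The 6 were HIST1H1C, HIST1H2AC, HIST1H2BD, HIST1H4H and HIST2H2BE with the replacement gene H1F0. In G2/M, 11 were higher than in G1 in all 3 cultures, the same 9 with HIST1H3F and HIST1H3J, beside 5.26%, and 5 were lower, the same 6 without H1F0, beside 4.55%. With the counting interval as a second condition, 7 members were higher in S in all 3 cultures (4.38% of genes), and H1F0, HIST1H1C and HIST1H2AC were lower (1.44%). For G2/M these counts were 8 higher (4.12%) and 3 lower (2.24%).

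With all UMIs of the same cells in place of thinned ones, 9 members were again higher in S in all 3 cultures (5.89% of genes), but not the same 9. HIST1H2AH, 1.2-fold (0.578 to 2.67) in ldR-H460, and HIST1H3B, 1.28-fold (0.531 to 3.23) in mdR-H460, no longer passed, and HIST1H2BK and HIST1H3F did. Lower in S were 7 (3.17%), the 6 with HIST1H2BC. For G2/M, 10 were higher (4.92%) and 4 lower (4.70%). HIST1H2AH, 1.39-fold, and HIST1H3J, 1.04-fold, both in ldR-H460, dropped from the higher members and HIST1H2BK joined them. HIST1H1C, 1.47-fold lower in H460, dropped from the lower ones.

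**Figure D4:**
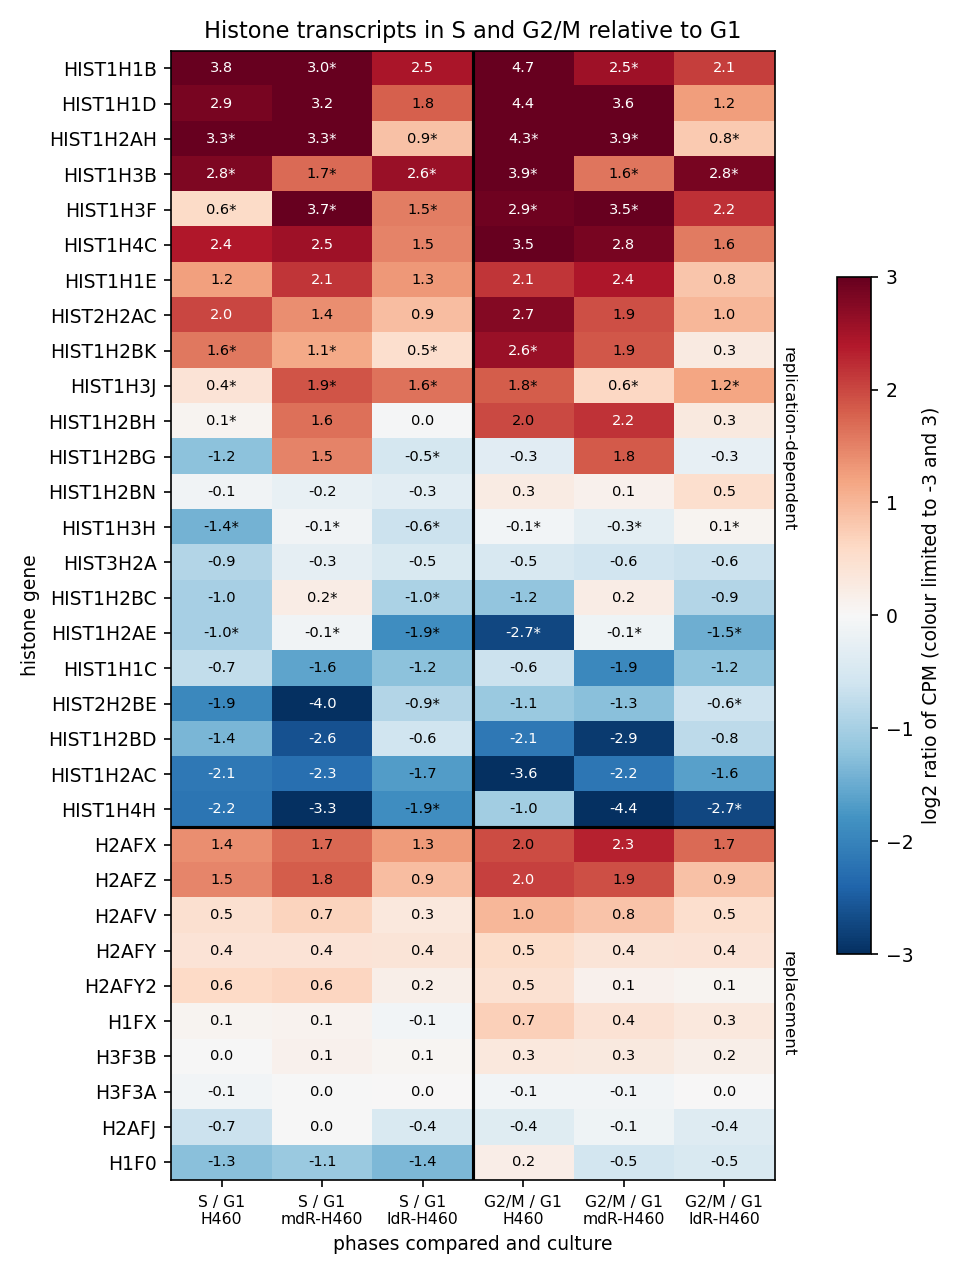
log2 ratio of CPM in thinned S or G2/M cells over G1 cells for the 32 measured members in each culture, written in each field and coloured from -3 to 3; replication-dependent members stand above the black line and an asterisk marks fewer than 20 UMIs in both phases. Where G1 held 0 UMIs, 3 UMIs stood in. That value depends on the stand-in, and its counting interval can start below it. For HIST1H3J in G2/M of mdR-H460 it was 1.53-fold with an interval from 0.840. HIST1H4C, HIST1H1D and H2AFZ are above 0 in every field, HIST1H1C, HIST1H2AC and HIST1H4H below 0 in every field, and the HIST1H4C values are smallest in ldR-H460.

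HIST1H4C had the most UMIs of the replication-dependent members. Its level in G1, S and G2/M was 145, 771 and 1605 CPM in H460, 146, 853 and 1047 CPM in mdR-H460, and 381, 1065 and 1120 CPM in ldR-H460. S was 5.30-fold (4.97 to 5.67), 5.84-fold (5.45 to 6.26) and 2.79-fold (2.65 to 2.95) above G1 in the 3 cultures. G2/M was 11-fold (10.4 to 11.8), 7.17-fold (6.72 to 7.66) and 2.94-fold (2.79 to 3.09) above G1.

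The smaller ratio in ldR-H460 went with a higher G1 level, 2.62-fold (2.43 to 2.84) that of H460, and with a G2/M level 1.43-fold below it. Of thinned G1 cells, 41.2% (38.7 to 43.8), 40.9% (38.3 to 43.5) and 62.2% (58.8 to 65.5) had a HIST1H4C UMI in H460, mdR-H460 and ldR-H460. Over all phases the share was 68.1%, 69.5% and 79.9%, and 76.3%, 69.4% and 86.8% before thinning. In the same G1 cells the S marker list summed to 479, 380 and 521 CPM and the G2/M list to 1605, 1369 and 1670.4 CPM. How far G1 calls hold other cells in ldR-H460 was not tested.

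H2AFZ was also lowest in G1 in each culture, with smaller ratios between phases. Its level in G1, S and G2/M was 433, 1198 and 1780.5 CPM in H460, 505, 1769 and 1940.5 CPM in mdR-H460, and 917, 1750.3 and 1690.1 CPM in ldR-H460. In G1 it was 2.12-fold (2.02 to 2.22) higher in ldR-H460 than in H460, against 1.46-fold in S and 0.95-fold in G2/M. Thinned G1 cells had a median of 2 H2AFZ UMIs in H460 and 3 in ldR-H460, with upper deciles of 5 and 11. Whether other cells among the G1 calls gave that upper end was not tested. H2AFX was 2.63-fold, 3.3-fold and 2.43-fold higher in S than in G1 in the 3 cultures. Both of these replacement genes were thus at least 1.5-fold higher in S and in G2/M than in G1 in each culture.

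The linker histone genes split. HIST1H1D was at 2.91, 21.1 and 59.3 CPM in G1, S and G2/M of H460, at 1.45, 13.1 and 17.6 CPM in mdR-H460, and at 6.83, 23.5 and 16.2 CPM in ldR-H460. HIST1H1C was the reverse, at 125, 74.2 and 80.1 CPM in H460, 150.1, 49.9 and 39.1 CPM in mdR-H460, and 57.7, 24.8 and 24.9 CPM in ldR-H460.

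S was 7.26-fold (4.58 to 12.1), 9.07-fold (4.63 to 19.8) and 3.44-fold (2.31 to 5.28) above G1 for HIST1H1D. For HIST1H1C it was 1.68-fold, 3.01-fold and 2.33-fold below G1. HIST1H1E was 2.36-fold, 4.40-fold and 2.48-fold higher in S. HIST1H1B had 3, 0 and 4 thinned UMIs in G1 and 43, 17 and 40 in S. With 3 UMIs in place of the 0, its S level in mdR-H460 was 7.91-fold that of G1. The counting interval of that ratio starts at 5.76.

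The 250 bases before the RefSeq starts of HIST1H1C, at chr6:26056471-26056720, and of HIST1H1D, at chr6:26234988-26235237, both minus strand on GRCh38.p14, are set side by side because these H1 genes had opposite phase patterns. Capitals mark the H1 box AAACACA on either strand, and also matches to TATAAA or to the CCAAT box.

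HIST1H1C: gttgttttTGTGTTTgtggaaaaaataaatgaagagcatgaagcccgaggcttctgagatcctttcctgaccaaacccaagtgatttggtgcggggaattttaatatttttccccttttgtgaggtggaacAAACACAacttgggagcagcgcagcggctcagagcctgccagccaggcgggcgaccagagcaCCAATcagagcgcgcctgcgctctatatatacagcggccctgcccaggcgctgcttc
HIST1H1D: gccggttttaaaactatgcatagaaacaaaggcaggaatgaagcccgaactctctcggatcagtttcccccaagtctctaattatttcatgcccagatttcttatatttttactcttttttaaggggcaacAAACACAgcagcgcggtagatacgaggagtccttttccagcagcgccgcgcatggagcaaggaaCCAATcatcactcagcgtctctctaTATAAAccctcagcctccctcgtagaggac

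Both windows hold a CCAAT and the H1 box, which occurs 2 times in HIST1H1C and 1 time in HIST1H1D. TATAAA is only in that of HIST1H1D. The H1 box was in 4 of 4 replication-dependent H1 genes, 1 of 11 H2A genes and 0 of the 25 H2B, H3 and H4 genes, beside 5.64% of all promoters. The letters searched therefore did not part these 2 genes, apart from the number of H1 boxes and TATAAA, which 11.5% of all promoters hold.

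HIST2H2AC was lowest in G1 in each culture, as HIST1H4C was. It stood at 7.47, 30.2 and 50.1 CPM in G1, S and G2/M of H460, 3.62, 9.49 and 13.9 CPM in mdR-H460, and 9.42, 17.9 and 18.8 CPM in ldR-H460. HIST1H4H was highest in G1, at 8.17, 1.79 and 3.98 CPM in H460, 22.1, 2.22 and 1.06 CPM in mdR-H460, and 1.88, 0.516 and 0.283 CPM in ldR-H460. Although both HIST1H4C and HIST1H4H encode histone H4, their transcripts were thus high in different phases. HIST1H4H rests on 15 thinned UMIs in ldR-H460, and its S ratio there was 3.65-fold lower with an interval that includes 1. With all UMIs of the same cells it was 0.324-fold (0.136 to 0.743).

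HIST1H2AC was 4.43-fold, 4.79-fold and 3.19-fold lower in S than in G1, and HIST1H2BD 2.59-fold, 6.14-fold and 1.52-fold lower, the last with an interval that includes 1; with all UMIs that last ratio was 0.506-fold (0.357 to 0.719). HIST2H2BE was lower in S in each culture on 8 UMIs or fewer in S. Of the 5 replication-dependent members lower in S in all 3 cultures by thinned UMIs, 4 have an annotated stem-loop and 3 have over 100 annotated bases after it, and their median longest transcript was 1668 bases. Of the 7 that were higher, 0 have either, and their median was 435 bases. Over all 22 measured replication-dependent members these values were 11, 9 and 673.5 bases. The groups were formed from these data, so this is a description.

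HIST1H2BH did not keep 1 pattern. It was at 2.08, 2.21 and 8.18 CPM in G1, S and G2/M of H460 and at 3.04, 9.49 and 13.7 CPM in mdR-H460. In ldR-H460 it was at 28.5, 27.6 and 35.0 CPM, with G2/M 1.23-fold (0.997 to 1.52) above G1. Its ldR-H460 level exceeded that of H460 by 13.7-fold (8.0 to 25.3) in G1, 12.5-fold (7.53 to 22.3) in S and 4.28-fold (3.07 to 6.11) in G2/M. The H460 levels in G1 and S rest on 15 and 16 thinned UMIs. With all UMIs of the same cells, S stood 1.75-fold (1.2 to 2.58) above G1 in H460. That ratio was 2.54-fold in mdR-H460 and 1.02-fold in ldR-H460. H460 was then at 2.02, 3.53 and 7.39 CPM and ldR-H460 at 25.9, 26.5 and 34.3 CPM, so the S difference between them was smaller. The difference between cultures was therefore present in each phase.

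Summed over replication-dependent members, S stood 2.55-fold, 2.44-fold and 2.14-fold above G1, and G2/M 5.02-fold, 2.91-fold and 2.22-fold. Without HIST1H4C the S sum was 0.85-fold, 0.59-fold and 0.90-fold that of G1. The higher S sum thus rested on HIST1H4C. Of the G1 sum without it, HIST1H1C, lower in S, made 125 of 236 CPM in H460, 150.1 of 269 in mdR-H460 and 57.7 of 202 in ldR-H460. That sum therefore does not describe the other members one by one.

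Among cells thinned to 5000 UMIs, HIST1H4C also varied more than H3F3A. Its Fano factor, the variance of UMIs per cell over their mean, was 6.26, 4.8 and 5.10, against 1.38, 1.18 and 1.17 for H3F3A. The tenth of cells with most HIST1H4C held 39.7%, 36.1% and 31.6% of its UMIs. HIST1H1C was seen in 32.2%, 26.3% and 12.7% of thinned cells and in 53.6%, 41.4% and 26.9% of all cells before thinning.

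H3.3 transcripts were nearly level over phases. H3F3A was at 969, 915 and 913 CPM in H460, 711, 701 and 672 CPM in mdR-H460, and 886, 897 and 889 CPM in ldR-H460. H3F3B in G1, S and G2/M was at 1302, 1296 and 1633 CPM in H460, 1123, 1222 and 1376 CPM in mdR-H460, and 758, 788 and 857 CPM in ldR-H460. The lower H3F3B in ldR-H460 than in H460 held in G1 (1.72-fold), S (1.65-fold) and G2/M (1.91-fold). H1F0 was 2.38-fold (S at 8.82 CPM, G1 at 21.0 CPM), 2.17-fold and 2.56-fold lower in S than in G1, and its G2/M level was within 1.5-fold of G1 in each culture.

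Cells were also placed in 8 bins by the angle between their S and G2/M scores. Bin 1 holds mostly G1 cells, and S and G2/M cells follow in order. HIST1H4C peaked in bin 6 in H460 at 1801 CPM and in bin 5 in mdR-H460 and ldR-H460 at 1150.1 and 1263.5 CPM. Its lowest bins were at 156, 170.5 and 435 CPM, so the highest bin was 11.6-fold, 6.75-fold and 2.91-fold above the lowest. For H2AFZ this range was 4.09-fold, 3.66-fold and 1.86-fold. Levels of H2AFZ and HIST1H4C thus differed less over the bins in ldR-H460, as over the phases. Bins and phases use the same scores, so neither checks the other. Bin 1 held 84 G2/M calls among 527 cells in ldR-H460 and 26 among 841 in H460. Bin 2 held 148 S calls among 561 cells in ldR-H460 and 110 among 742 in H460. The part of such mixing was not tested.

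**Figure D5:**
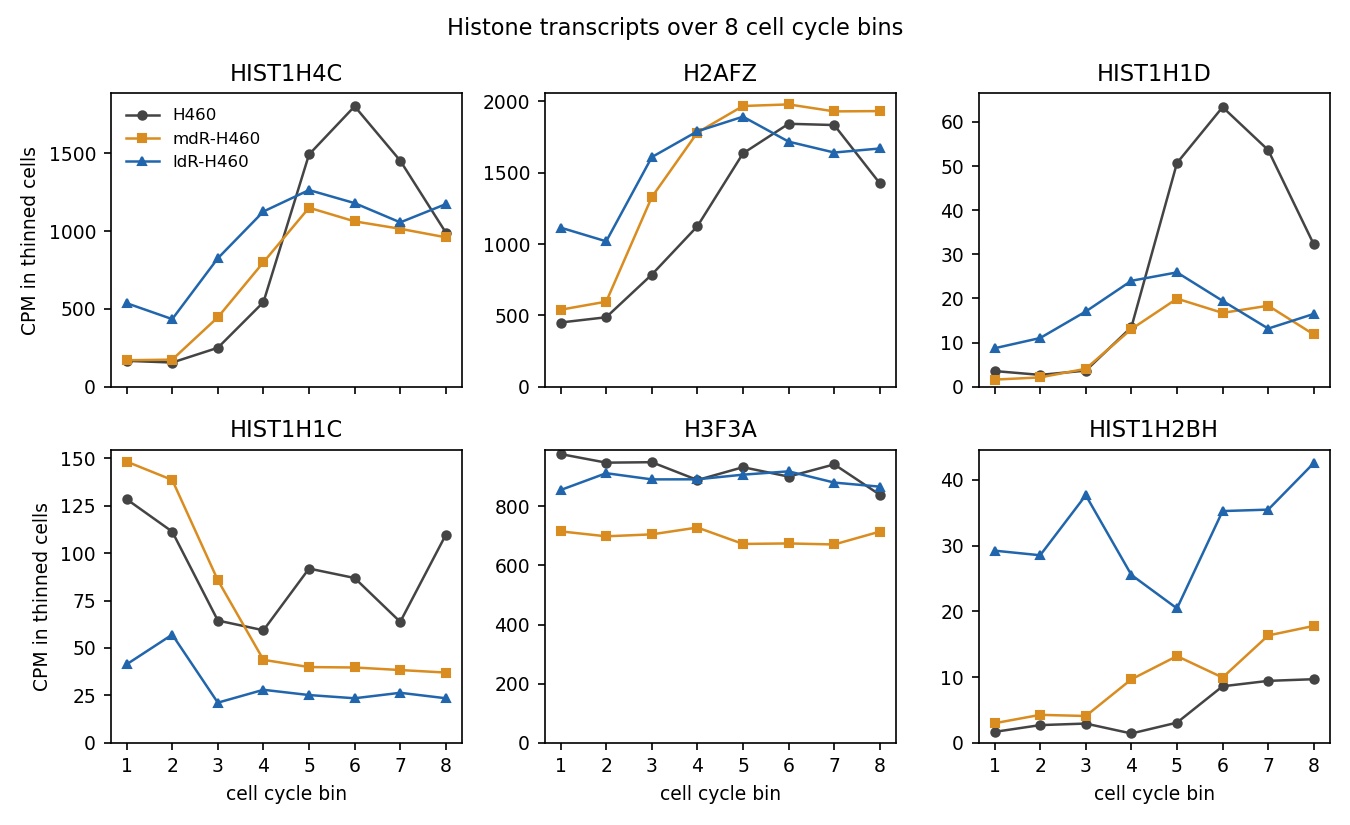
CPM in thinned cells over 8 cell cycle bins (bin 1 mostly G1, bins 3 to 5 mostly S, bins 6 to 8 G2/M) for 6 members; each line is 1 library and each vertical axis starts at 0. HIST1H4C is highest in bins 5 and 6, HIST1H1C is highest in G1 bins, H3F3A stays level, and HIST1H2BH is high in every bin of ldR-H460.

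Likeness to HIST1H4C was described by Pearson correlation of log2(CPM + 1) over 24 points, the 8 bins of 3 libraries, among 6536 genes. Leaving out members and marker genes, the 5 most alike were FOXM1 (0.968), STMN1 (0.964), CCDC34 (0.960), MYBL2 (0.959) and PBK (0.957). H2AFZ stood at 0.957, HIST1H1D at 0.932, HIST2H2AC at 0.70, H3F3A at 0.00 and HIST1H1C at -0.62. For H2AFZ the most alike were CCDC34 (0.978), MND1 (0.973), BCL2L12 (0.972), LSM5 (0.972) and CENPN (0.969). Points of 1 library share its depth and its binning, and neighbouring bins are not independent.

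Genes on a list for the making and processing of histone transcripts differed in both directions. This list, called the processing list, also holds regulators of transcription or the cell cycle, namely NPAT, E2F1, CCNE1, CCNE2 and CDK2. Of 19 on the list, all measured, 1 was at least 1.5-fold higher and 6 lower in mdR-H460 than in H460, and 1 and 4 in ldR-H460. Over all genes 6.66% were higher and 22.2% lower in mdR-H460, and 11.6% and 22.1% in ldR-H460. The list's medians were -0.26 and -0.24 (log2), beside -0.16 and -0.13 over all genes. SLBP, which binds the stem-loop, was at 70.8, 59.2 and 59.2 CPM. NPAT, the coactivator of histone gene clusters, was at 4.97, 2.90 and 3.56 CPM, 1.72-fold (mdR-H460) and 1.40-fold (ldR-H460) below H460.

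CCNE2, a cyclin E that activates CDK2 toward S phase, was at 9.20, 3.27 and 2.40 CPM, 3.84-fold lower in ldR-H460 than in H460. CCNE1 was at 14.6, 10.6 and 7.21 CPM. CASP8AP2, a factor of histone locus bodies, was at 20.5, 9.98 and 11.2 CPM. LSM11, part of the U7 particle that guides cleavage of histone transcripts, went the other way, at 2.93, 3.53 and 7.79 CPM, 2.66-fold (2.24 to 3.16) higher in ldR-H460 than in H460.

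Of 25 histone chaperones and related factors, all measured, 1 was higher and 4 lower in mdR-H460, and 2 and 2 in ldR-H460, beside the same shares of all genes. Their medians were -0.16 and -0.05, beside -0.16 and -0.13 over all genes. ASF1B and CHAF1A, which hand H3 and H4 to new DNA, were at 27.5, 24.9 and 22.0 CPM and at 32.1, 24.7 and 30.2 CPM. The H3.3 chaperones HIRA and DAXX were at 4.11, 4.05 and 4.71 CPM and at 23.1, 22.6 and 18.2 CPM. ANP32E, which removes H2A.Z, was at 101, 106 and 90.7 CPM. These 5 stayed within 1.5-fold in each pair.

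Of the chaperone list, VPS72, which belongs to complexes that load H2A.Z, was at 36.1, 23.6 and 18.3 CPM, 1.97-fold lower in ldR-H460 than in H460. SRCAP, the ATPase of such a complex, was at 1.30, 0.675 and 0.628 CPM. ASF1A was highest in mdR-H460, at 41.3, 77.2 and 58.2 CPM. CABIN1, a subunit of the HIRA complex, was at 5.05, 4.52 and 9.01 CPM, 1.79-fold (1.56 to 2.05) higher in ldR-H460 than in H460.

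Over phases, 16 genes of the processing list and 20 of the chaperone list lie outside the marker lists. In S against G1, 8, 7 and 6 of the 16 were at least 1.5-fold higher and 1, 1 and 0 lower in H460, mdR-H460 and ldR-H460. Of the 20, 8, 8 and 5 were higher and 0, 1 and 1 lower. Over all genes outside the marker lists, 14.0%, 17.2% and 16.0% were higher and 11.2%, 19.7% and 13.1% lower. The median of the processing list was 0.45, 0.57 and 0.33 (log2), beside 0.01, -0.01 and 0.08 over all genes, and that of the chaperone list was 0.39, 0.44 and 0.36.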

How the data were processed

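Suspensions passed through a 30 µm strainer gave droplet libraries of 3' ends (Chromium, v2 chemistry; 5,000 cells aimed at) that were read on an Illumina HiSeq, per the labels' protocols. The submitters' processing notes list Cell Ranger 3.0.2, Seurat 3.0 and GRCh38; no source used here states the annotation release. The deposited tables hold unnormalized UMI counts per symbol and cell, for cells the authors kept after quality filtering, per the series design text. An unlisted symbol was set to 0.

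UMIs were summed per library, or per library and phase, and divided by the total (CPM). Intervals are exact (Poisson, Clopper-Pearson, conditional binomial) at 95% and cover counting error only; 3 UMIs stood in for 0. With 1 library per culture no p-value was computed. Cells were thinned at random to 5000 UMIs for phases and shares, and phases scored with scanpy 1.11.5 (Python 3.11.15, numpy 2.4.6, scipy 1.17.1) over symbols seen in at least 10 cells. No doublet caller was run, and doublets could blur phases. Calls were tested on simulated counts. Alternatives used edgeR 4.0.16 and DESeq2 1.42.0 scaling (R 4.3.3), other totals, thinning, cells, seeds and filters. Transcript positions and loops come from GENCODE annotation on GRCh38, matched by symbol, which may differ from the submitters' annotation. Of 59 members, 55 matched a RefSeq gene and 49 a promoter.

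Members and lists were chosen with earlier results of these data known. Named with levels were members at 10 CPM or more, measured members under that with a 2-fold difference in a pair or 2-fold higher in S or G2/M than in G1 in all 3 cultures, SLBP, NPAT, ASF1B, CHAF1A, HIRA, DAXX and ANP32E, up to 4 genes per list with the largest ratios, and the 5 genes most like HIST1H4C and H2AFZ. HIST1H2AH, HIST1H2BD, HIST1H2BG, HIST1H2BN and HIST2H2BE were named after their values were seen.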

Additional observations from a re-analysis of the deposited data

Results flagged for a closer look

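HIST1H2BG, an H2B gene, had S and G1 levels in opposite order in H460 and mdR-H460. Its S level was 2.79-fold (1.25 to 6.68) that of G1 in mdR-H460, on 20 and 10 thinned UMIs, and 0.427-fold (0.172 to 0.972) in H460, on 9 and 21. In ldR-H460 it was 0.697-fold (0.294 to 1.70). With all UMIs of the same cells the ratio was 0.591-fold (0.355 to 0.971) in H460 and 2.24-fold (1.38 to 3.72) in mdR-H460. In ldR-H460 it then changed side, to 1.29-fold (0.716 to 2.46). The difference between the cultures was not tested, and its UMIs are few.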

How the results depend on the processing

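With edgeR TMM factors, and equally with DESeq2 factors, 9 members in place of 4 were at least 1.5-fold higher in mdR-H460 than in H460. The share of all genes was 11.1% and 10.9% with these factors, in place of 6.66%. Among the 17 members at 10 CPM or more, 1 was higher and 3 lower in mdR-H460 than in H460, 2 higher and 6 lower in ldR-H460 than in H460, and 3 higher and 3 lower in ldR-H460 than in mdR-H460. Over all genes at that level the shares were 4.92% and 16.8%, 8.67% and 19.1%, and 8.94% and 10.3%. Without a filter on level, with all 59 members above 3 UMIs, these counts were 13 and 9, 23 and 14, and 14 and 11, beside 11.2% and 26.0%, 15.8% and 26.2%, and 18.9% and 15.5% of genes. In G1 cells alone 13 members were higher and 6 lower in ldR-H460 than in mdR-H460, beside 19.1% and 18.5% of genes. For S against G1, the 17 members gave 7 higher and 4 lower in H460. In mdR-H460 they gave 9 and 2, and in ldR-H460 6 and 2. Over all genes outside the marker lists at that level the shares were 11.9% and 4.88%, 17.3% and 13%, and 14.9% and 7%. For G2/M the 17 members gave 9 and 1, 8 and 1, and 6 and 2. The shares there were 12.3% and 8.73%, 18.2% and 15.6%, and 15.2% and 6.3%. Thinning to 3000 UMIs gave 8 lower in G2/M of mdR-H460, beside 23.8% of genes, and 5 lower in S of ldR-H460, beside 14.1%. A counting interval that excludes 1, added after seeing the data, left 4 lower in G2/M of H460, 7 higher and 4 lower in S of ldR-H460 and 5 lower in G2/M of ldR-H460. Of genes, 8.57%, 9.91% and 6.94%, and 7.51% passed in the same comparisons. The smaller set tests fewer members and the added condition lets fewer pass by construction; the cause of the other shifts was not tested. Of the results at least 1.5-fold apart, 645 alternative values kept their direction and 2 turned, both in G1 cells alone. There the log2 ratio of summed replication-dependent H1 in mdR-H460 against H460 became 0.18 and that of HIST2H2AC in ldR-H460 against H460 became 0.33. The HIST2H2AC ratio rests on 40 and 54 thinned UMIs, with level intervals that overlap. Other scaling or totals moved log2 ratios by 0.18 at most, and filters on level leave a ratio as it is. Those alternatives could not turn a 1.5-fold difference, so the 645 are no measure of stability. Members with few UMIs per phase are limited by depth, and 1 library per culture limits every comparison.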
